A study of Mus musculus with 9 samples.

Results

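The genes described here were 38 chaperone and unfolded protein genes, taken as the rows of the expression table whose symbol was on a list of 38 names, of 22322 genes in all. They fell into 22 endoplasmic genes, whose proteins fold, modify or remove proteins in the endoplasmic reticulum or sense stress there, and 16 cytosolic heat shock genes, among which Hspd1 and Hspe1 encode mitochondrial chaperonins. Of the 38, 37 passed the low-count filter and were tested, all 22 endoplasmic and 15 of 16 cytosolic genes. Hspa1a did not pass.

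RNA was sequenced from purchased mouse retinal ganglion cells (RGCs), labelled wild type, with 3 replicated wells in each of 3 groups. Normal RGCs were kept in high glucose medium with serum. Aging RGCs also received D-galactose, a sugar used to induce a senescent state in culture. Aging RGCs + USCs medium received D-galactose and then medium conditioned by urine-derived stem cells (USCs), from which the USCs had been removed. No group received the medium without D-galactose, and none received USC culture medium that had not been conditioned. The USCs were grown in a purchased medium of their own, so the medium group may also differ in base medium. The 2 comparisons that involve aging RGCs share those 3 libraries, and each pair of comparisons shares a group. The wells came from a single purchased cell stock as far as the methods say, so p-values measure only the spread between wells, which may be technical.

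When unfolded proteins accumulate in the endoplasmic reticulum, the membrane sensors encoded by Atf6, Ern1 and Eif2ak3 start the unfolded protein response. ATF6 and the XBP1 protein made after IRE1 (Ern1) splices Xbp1 mRNA then activate genes for lumenal chaperones, disulfide isomerases and degradation factors, while PERK (Eif2ak3) slows translation and raises ATF4. The heat shock response is a separate program in which HSF1 activates cytosolic chaperone genes. RGCs are the output neurons of the retina, whose axons form the optic nerve.

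Both programs are known for short promoter elements, and these were searched in RefSeq promoters of GRCm38.p6, each reaching from 250 bases before to 50 bases after a gene's start. Promoters were found for 30 of the 38 genes. The endoplasmic reticulum stress element was searched on both strands as CCAAT, then 9 bases of any kind, then CCACG, and 8 of 19 endoplasmic genes (42.1%) held it. Of all 27025 genes with a promoter, 37 (0.137%) held it, in 39 of 32851 promoters (0.119%), and so did 0 of 11 cytosolic genes. To let the genes be compared, each element is given with its flanks on the strand of the gene, 5′ to 3′, with the element in capitals. In the promoters of Calr, Creld2 and the first Hsp90b1 site it runs in reverse.
Hspa5 (chr2:34772020-34772048, plus strand): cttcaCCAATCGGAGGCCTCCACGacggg
Hsp90b1 (chr10:86705503-86705581, minus strand): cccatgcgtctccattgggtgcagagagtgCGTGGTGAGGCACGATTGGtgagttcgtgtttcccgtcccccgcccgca
Hsp90b1 (chr10:86705608-86705686, minus strand): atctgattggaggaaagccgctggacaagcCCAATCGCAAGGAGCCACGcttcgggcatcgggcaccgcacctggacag
Pdia6 (chr12:17266461-17266539, plus strand): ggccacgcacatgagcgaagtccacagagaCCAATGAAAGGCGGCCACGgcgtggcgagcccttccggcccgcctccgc
Creld2 (chr15:88819490-88819568, plus strand): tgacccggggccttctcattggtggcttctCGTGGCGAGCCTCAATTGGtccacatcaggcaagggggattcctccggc
Dnajc3 (chr14:118937797-118937875, plus strand): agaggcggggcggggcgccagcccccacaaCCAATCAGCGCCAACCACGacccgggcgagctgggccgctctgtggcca
Calr (chr8:84847045-84847123, minus strand): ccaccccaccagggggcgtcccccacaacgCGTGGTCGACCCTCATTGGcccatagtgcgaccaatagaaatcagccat
Canx (chr11:50325770-50325848, minus strand): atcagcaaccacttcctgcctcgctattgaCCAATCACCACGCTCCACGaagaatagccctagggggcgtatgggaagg
Syvn1 (chr19:6046502-6046580, plus strand): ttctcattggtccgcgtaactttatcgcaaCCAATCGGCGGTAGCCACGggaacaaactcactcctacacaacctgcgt

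Hsp90b1 was the only one of these genes with 2 copies of the element, beginning 107 and 212 bases before its start. The Hspa5 copy began 65 bases before the RefSeq start and lies in an exon of the longer GENCODE model of that gene. The Calr copy was the most distant of the others at 162 bases, and the Syvn1 copy the nearest at 44 bases. A shorter form, ATTGG and CCACG with 1 base of any kind between them, was searched on both strands after the expression values were known. It stood in the promoters of Dnajb11 and Herpud1, against 12 of all genes with a promoter (0.0444%). It is shown for Herpud1, the gene that fell furthest in aging RGCs.
Herpud1 (chr8:94386347-94386417, plus strand): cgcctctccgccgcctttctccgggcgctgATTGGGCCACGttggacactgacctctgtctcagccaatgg

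The unfolded protein response element TGACGTGG was in 0 of the 30 genes' promoters and in 0.676% of all promoters. The heat shock element was searched as GAA, TTC and GAA with 2 bases of any kind between neighbours, and as its reverse complement TTC, GAA and TTC. It was found in 3 of 11 cytosolic genes, Hspd1, Hspe1 and Hsph1, in 0 of 19 endoplasmic genes and in 0.662% of all genes with a promoter. Only exact matches inside these windows were counted, so looser or more distant sites would be missed, also in Hspa1a, Hspa1b, Hspb1 and Dnajb1. The Hsph1 match began 15 or 36 bases after the start, depending on the RefSeq start. Hspd1 and Hspe1 are neighbours that point away from each other. For both, 1 stretch holds the element, shown on the Hspd1 strand, where 2 matches overlap.
Hspd1 (chr1:55088054-55088081, minus strand): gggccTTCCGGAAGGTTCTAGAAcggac

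The cells were checked against marker genes in CPM, counts relative to the TMM-normalized library. Of 12 RGC markers, 5 passed the low-count filter. Pou4f2 and Pou4f3 had 0 counts in all 9 libraries and Thy1 averaged at most 0.0326 CPM, while Rbpms (61.2, 49.6 and 48.0 CPM in normal, aging and medium) and Nefl (63.6, 38.4 and 17.3 CPM) were present. Tubb3, also on this list, went against their order at 4.46, 2.595 and 21.2 CPM, with a log2 fold change of 3.03 for the medium against aging (adjusted p = 6.91e-26). The 12 summed to 143 to 155 CPM in normal, then 102 to 105 and 96.5 to 104 CPM in aging and medium libraries. Mesenchymal Col3a1 averaged 447 CPM in normal RGCs, Col1a1 14.7 and Pdgfrb 4.90, while Col1a2, Dcn, Lum and Acta2 averaged 0.14, 0.33, 0.03 and 0.22. Epithelial Krt8 averaged 410.0, 560 and 714 CPM in normal, aging and medium libraries, while Krt18, the other abundant epithelial marker, averaged 320.5, 252 and 281 CPM and was called lower than normal in both other groups. In normal RGCs Epcam averaged 1.97 CPM, Cdh1 0.10, Cldn4 0.11 and Krt14 0.03, with Krt5 and Cldn7 at 0. Epithelial marker sums, nearly all Krt8 and Krt18, were 694 to 777, 805 to 819 and 981 to 1018 CPM over the 3 groups. Mesenchymal sums, nearly all Col3a1, were 428 to 509, 396 to 408 and 242 to 246. Glial sums, nearly all Vim, were 1759 to 1854, 2059 to 2130 and 2025 to 2165. The 11 macrophage markers summed to 60.7 to 71.4, 45.0 to 52.4 and 31.2 to 56.5 CPM, with C1qa, C1qb and C1qc at a mean of 0 in aging RGCs and under 1 CPM elsewhere. Most of this sum was Cd68, at 38.6, 41.5 and 31.3 CPM. Of the 9 tested, C1qb, Adgre1, Tyrobp and Fcer1g were called lower in aging RGCs (all genes, 23.1%), and the rest, with Cd68, were not called there. The highest medium sum was that of replicate 3, where Lyz2 had 12.3 CPM against 2.31 and 0.99 in the other medium libraries. The 8 photoreceptor markers summed to at most 1.18 CPM, with Crx, Rcvrn and Arr3 at 0. The label of the cells therefore rests on few of its defining markers. Several of these sums differed between the groups compared here, and their part in the results was not tested. In such bulk libraries fewer cells of a type and less RNA per cell cannot be told apart.

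Levels of different genes were compared as FPKM, which is scaled by transcript length. In normal RGCs the members ranged from 1515 ± 12.5 FPKM (SD, n = 3) for Hsp90ab1, a cytosolic Hsp90, to 6.68 ± 0.396 for Eif2ak3, 4.79 ± 0.706 for the stress-inducible Hsp70 gene Hspa1b and 0.10 ± 0.052 for its near-identical copy Hspa1a. Hspa8, the constitutive Hsp70, came second at 1148 ± 53.8, and its libraries lay below those of Hsp90ab1. In aging RGCs + USCs medium the order was turned, with 1701 ± 15.2 for Hspa8 and 1653 ± 20.9 for Hsp90ab1 and no overlap of their libraries. The most abundant endoplasmic genes in normal RGCs were Hspa5, which encodes the lumenal Hsp70 BiP, at 460.5 ± 50.6 FPKM and Hsp90b1, the lumenal Hsp90, at 401 ± 24.7, and their libraries nearly met. Hspa1b was far below Hspa8 in every group, and Hspa1a had between 0 and 8.38 expected counts in a library.

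**Figure D1:**
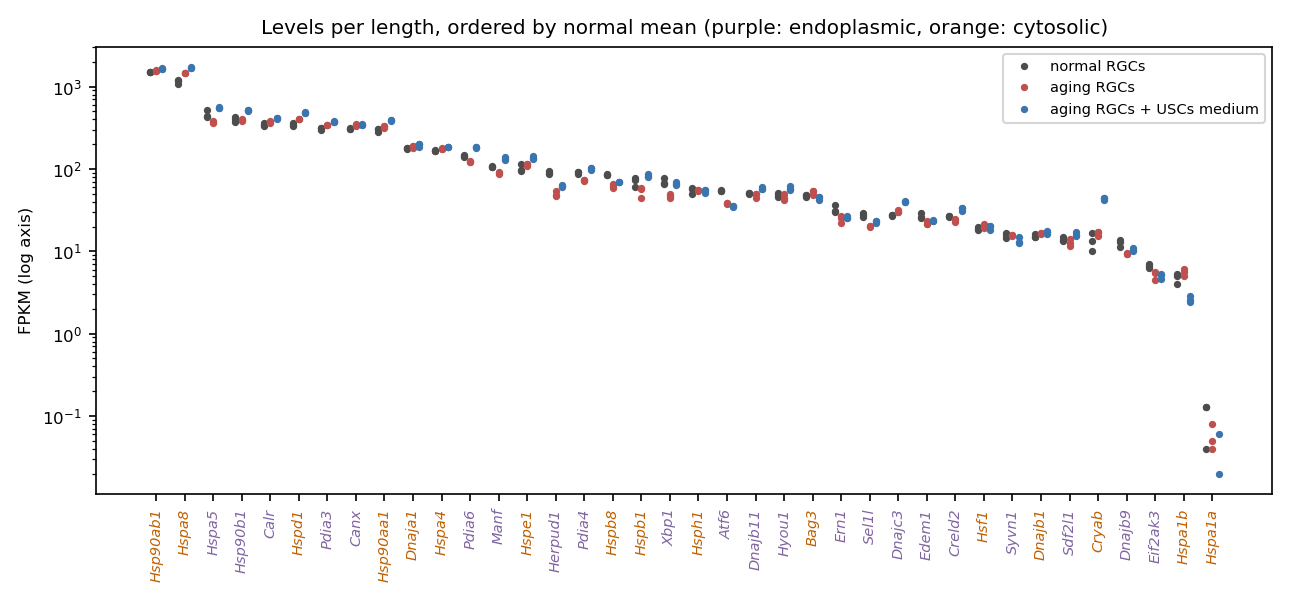
FPKM of each gene on a log axis, 1 point per library, ordered by the mean of normal RGCs, with endoplasmic names in purple and cytosolic names in orange. Levels run from 1515 ± 12.5 (SD, n = 3) for Hsp90ab1 in normal RGCs down to Hspa1a. An Hspa1a value of 0 in 1 medium library cannot be drawn on this axis.

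To follow the genes over the groups, expected counts were given as CPM and tested with edgeR's quasi-likelihood test across all 12145 genes that passed the filter. A gene was called higher or lower at a Benjamini-Hochberg adjusted p under 0.05, and a DEG had to differ by at least 1 log2 unit as well. Of all genes tested, 46.8% were called between aging and normal RGCs, 53.3% between the medium and aging RGCs and 60.7% between the medium and normal RGCs. In each comparison, the counts of called members are therefore set beside the share of all genes called in the same direction.

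In aging RGCs, endoplasmic genes were mostly lower and cytosolic genes mostly higher than in normal RGCs. Of 22 endoplasmic genes, 14 fell (all genes, 23.1%) and 4 rose (all genes, 23.8%), with a median log2 fold change of -0.21 against 0.00 over all genes tested. Of 15 cytosolic genes, 10 rose and 2 fell, with a median of 0.14. The changes were small. Only Herpud1 fell by at least 1.5-fold (all genes, 4.76%) and 0 members rose by as much (all genes, 3.07%), the largest rise being 0.37 log2 units. With no change above 0.83 log2 units there were 0 DEGs among the members, against 1.04% of all genes upwards and 1.5% downwards (2.54% together). The 14 endoplasmic genes that fell had no overlap between the 2 groups of libraries, nor had the 4 that rose, and 10 of 15 cytosolic genes were separated in the same way (all genes, 53.0%). The cytosolic count was the least stable, with 5 genes higher on library totals without TMM factors and 4 by limma on FPKM, and with 6 higher when replicate 3 of normal RGCs or replicate 2 or 3 of aging RGCs was left out. The same alternatives left 13 or 14 endoplasmic genes lower.

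With the medium, both sets were mostly higher than in aging RGCs. Of 22 endoplasmic genes, 19 rose (all genes, 27.2%) and 1 fell (all genes, 26.1%), with a median log2 fold change of 0.36 against -0.01 over all genes tested. Of 15 cytosolic genes, 10 rose and 2 fell, with a median of 0.15. At least 1.5-fold higher were Hspa5, Pdia6, Manf, Hspb1 and Cryab (all genes, 3.42%), and Hspa1b was at least 1.5-fold lower (all genes, 8.29%). The 2 DEGs among the members (all genes, 5.35%) were Cryab upwards (all genes, 1.19%) and Hspa1b downwards (all genes, 4.16%). For 20 of 22 endoplasmic and 12 of 15 cytosolic genes the groups were free of overlap (all genes, 59.8%). The medium libraries had the lowest TMM factors, 0.956 to 0.965 against 1.01 to 1.03 in the other groups. Without these factors the endoplasmic median was 0.28 with 16 genes higher and the cytosolic median 0.07 with 8 higher, while the median of all genes moved to -0.085.

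Against normal RGCs, both sets had more genes higher than lower with the medium. Of 22 endoplasmic genes, 13 rose (all genes, 30.6%) and 7 fell (all genes, 30.1%), with a median log2 fold change of 0.29 against -0.01 over all genes tested. Of 15 cytosolic genes, 10 rose and 2 fell, with a median of 0.24. At least 1.5-fold higher were Hspa8, Dnajc3, Hspd1 and Cryab (all genes, 4.51%), and Hspa1b was at least 1.5-fold lower (all genes, 11.0%). Cryab was the single DEG (all genes, 6.66%), upwards (1.44%), with 0 downwards (5.22%). Non-overlapping libraries were counted for 19 endoplasmic and 12 cytosolic genes (all genes, 63.8%). Without TMM factors the median of all genes moved by -0.10, from -0.01 to -0.11, and relative to it the endoplasmic median was 0.30 and the cytosolic median 0.25, as with the factors.

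**Figure D2:**
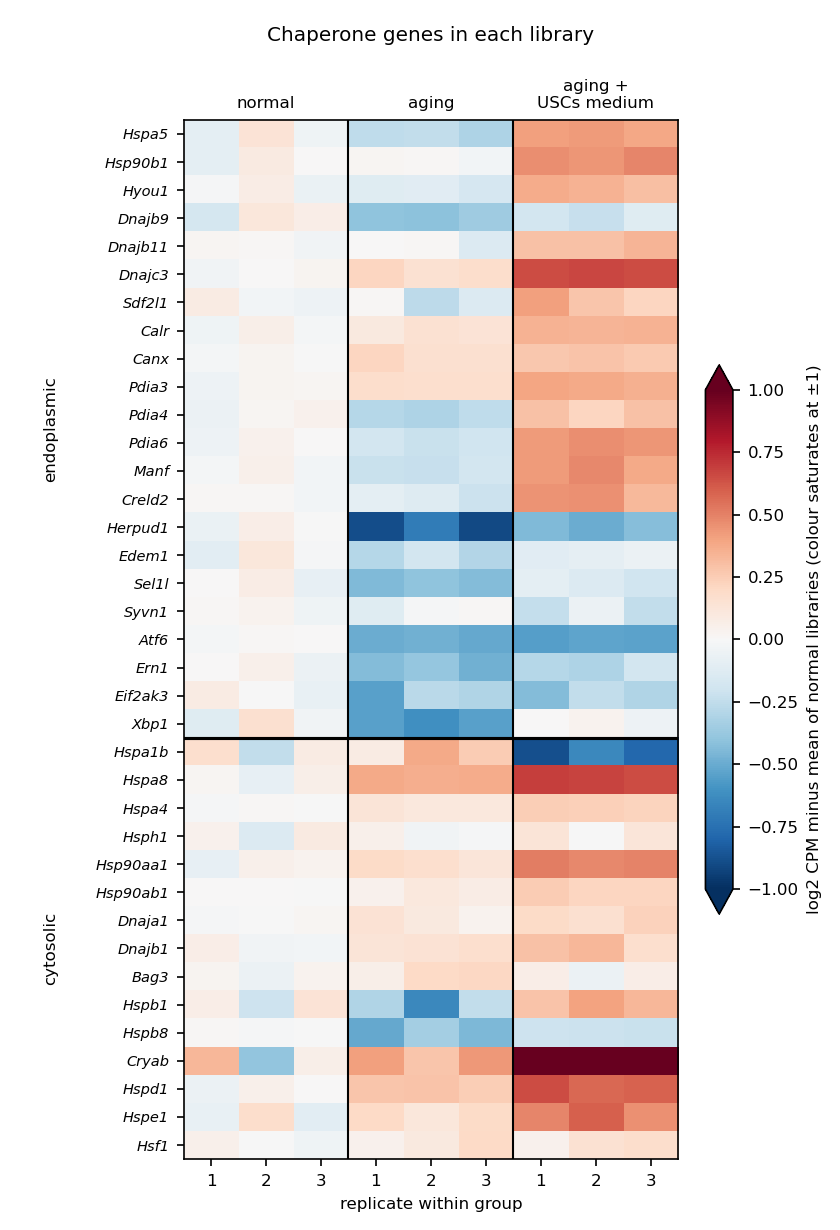
Heat map of log2 CPM minus the mean of normal RGCs for the 37 genes tested, 1 column per library, with endoplasmic genes above the line and cytosolic genes below it. Aging columns are blue for 14 endoplasmic genes that fell, and the medium columns turn red for most chaperones but stay blue for Herpud1, Atf6, Ern1 and Eif2ak3, among others.

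**Figure D3:**
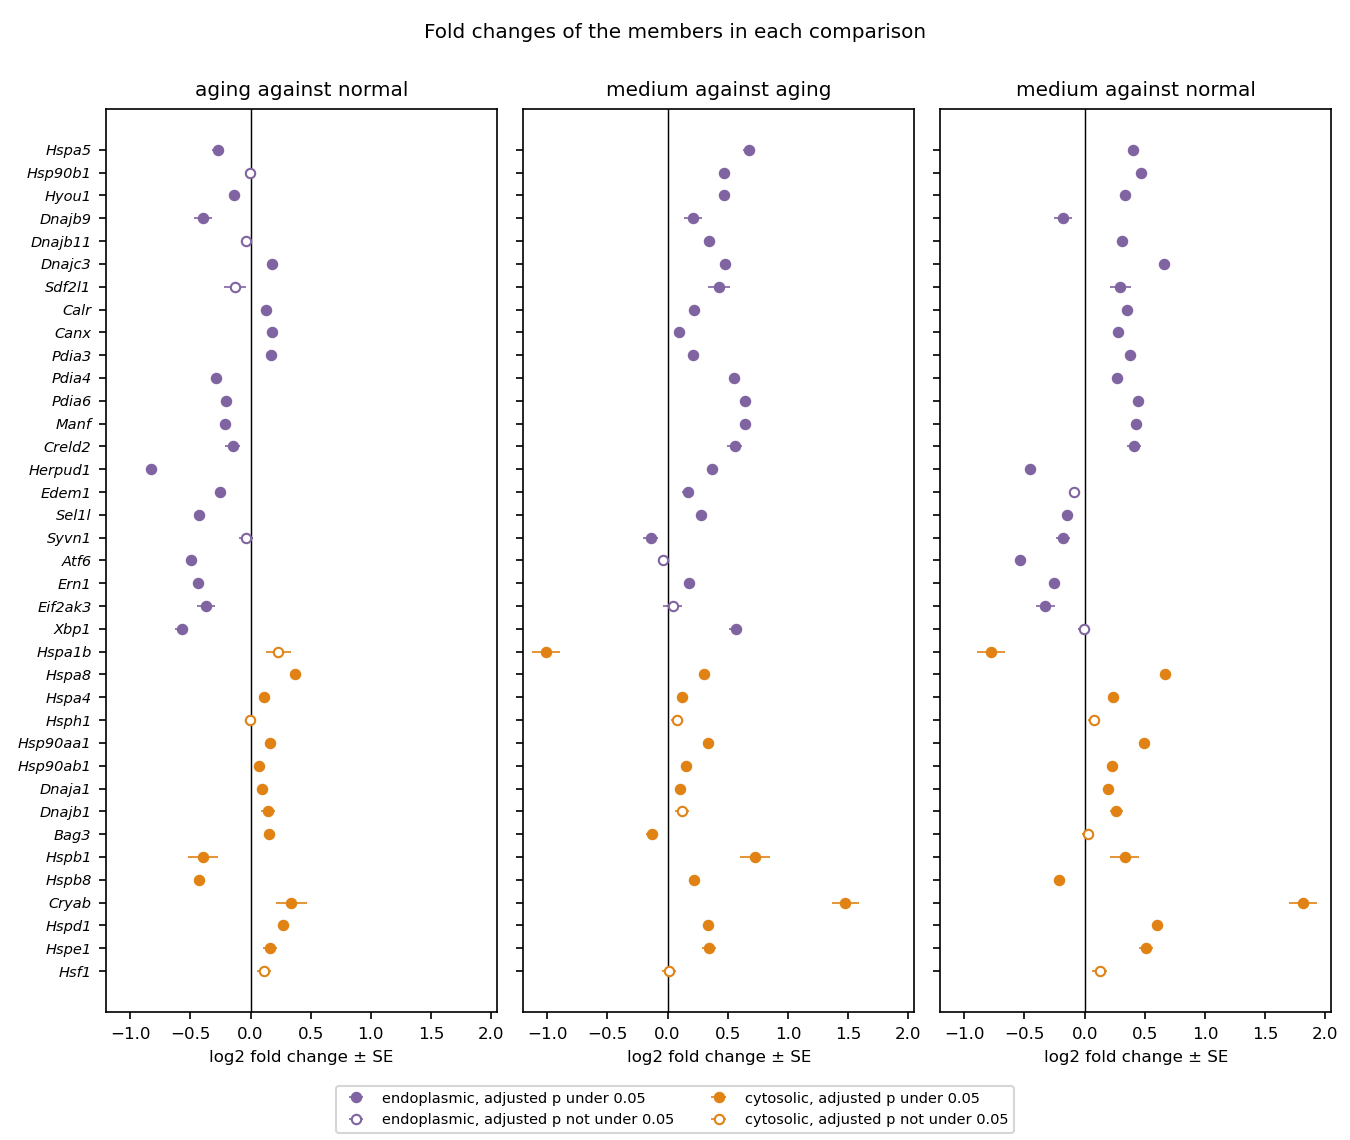
Log2 fold change ± SE of each gene in the 3 comparisons, on a common axis, with filled points at an adjusted p under 0.05. Herpud1 is lowest in aging against normal at -0.83, and Cryab is highest with the medium at 1.48 against aging and 1.82 against normal.

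All 4 genes for sensors and their transcription factors fell in aging RGCs (all genes, 23.1%). Positions of genes are GENCODE M21 loci on GRCm38, and SE is the standard error of a log2 fold change. Atf6 (chr1:170704674-170867771), which encodes the membrane-bound precursor of a transcription factor, had 378, 387 and 385 CPM in the normal libraries, 272, 274 and 268 in the aging libraries and 262, 266 and 265 with the medium. All 6 D-galactose-treated libraries were below all normal libraries, and the medium libraries were just below the aging ones without overlap. Log2 fold changes were -0.50 (SE 0.032, adjusted p = 4.39e-19) for aging against normal and -0.54 (SE 0.032, adjusted p = 8.86e-21) for the medium against normal, while the medium and aging RGCs were not called different, at -0.04 (SE 0.032, adjusted p = 0.305), except without TMM factors and by limma on FPKM, where Atf6 was called lower.

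Ern1, which encodes the sensor kinase and endonuclease IRE1, had 166, 171 and 159 CPM in normal, 122, 126 and 119 in aging and 136, 134 and 145 in medium libraries. The 3 groups did not overlap, with the medium between the other groups. Its log2 fold change was -0.43 (SE 0.040, adjusted p = 3.34e-13) for aging against normal, 0.18 (SE 0.041, adjusted p = 2.51e-04) for the medium against aging and -0.26 (SE 0.040, adjusted p = 1.63e-07) for the medium against normal. The rise with the medium was not called by limma on FPKM. Eif2ak3, which encodes the kinase PERK, was sparse at 30.97, 29.2 and 27.8 CPM in normal, 20.1, 24.3 and 23.8 in aging and 21.7, 24.7 and 23.8 in medium libraries. Normal libraries were again highest, and the aging and medium libraries overlapped. It fell by 0.37 log2 units (SE 0.077, adjusted p = 7.30e-05) in aging RGCs and stayed lower with the medium at -0.33 (SE 0.076, adjusted p = 2.39e-04), with 0.04 (SE 0.079, adjusted p = 0.672) between medium and aging.

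Xbp1 (chr11:5520659-5525893), whose mRNA IRE1 splices, behaved otherwise. It had 125, 152 and 133 CPM in normal, 93.5, 89.4 and 93.5 in aging and 137, 140.2 and 131 in medium libraries. Aging libraries were below both other groups, which overlapped. On the log2 scale the change was -0.57 (SE 0.054, adjusted p = 4.17e-09) in aging RGCs and 0.56 (SE 0.054, adjusted p = 3.83e-09) with the medium, with -0.01 (SE 0.052, adjusted p = 0.926) left between the medium and normal RGCs. Gene-level counts do not separate spliced from unspliced Xbp1 mRNA. Of the 4 genes in this group, Xbp1 and Ern1 were thus the ones called higher with the medium than in aging RGCs, and Xbp1 the one not called different from normal RGCs.

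Among the lumenal Hsp70 and Hsp90 system, 3 of 7 genes fell in aging RGCs (all genes, 23.1%), 1 rose (all genes, 23.8%), and all 7 rose with the medium (all genes, 27.2%). Hspa5 (chr2:34771970-34777547) had 1113, 1307 and 1153 CPM in normal, 998, 1001 and 960.1 in aging and 1575, 1598 and 1556 in medium libraries. Aging libraries were lowest and medium libraries highest, with no overlap, and normal replicate 2 stood apart from the other normal libraries. In log2 units edgeR gave -0.27 (SE 0.047, adjusted p = 2.88e-04) in aging RGCs, 0.68 (SE 0.047, adjusted p = 2.37e-08) with the medium, a 1.60-fold rise, and 0.40 (SE 0.047, adjusted p = 4.01e-06) for the medium against normal.

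Dnajc3, a J-domain co-chaperone of BiP that also inhibits PERK, was the 1 gene of this system that rose both in aging RGCs and with the medium. It had 134, 137 and 139 CPM in normal, 159, 152 and 154 in aging and 214, 218 and 214 in medium libraries, with 3 separate groups. The fitted log2 fold change was 0.18 (SE 0.037, adjusted p = 4.49e-05) in aging RGCs, 0.47 (SE 0.036, adjusted p = 2.03e-16) with the medium and 0.66 (SE 0.036, adjusted p = 5.00e-22) for the medium against normal. Hsp90b1, which holds a pair of stress elements, had 1029, 1169 and 1105 CPM in normal, 1115, 1106 and 1080 in aging and 1520, 1494 and 1544 in medium libraries. Normal and aging libraries overlapped (log2 fold change -0.00, adjusted p = 0.987), and the medium libraries lay above both, at a log2 fold change of 0.47 against aging.

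Hyou1, an Hsp110-type exchange factor for BiP, fell by 0.13 log2 units in aging RGCs, a fall not called by limma on FPKM, and rose by 0.47 log2 units with the medium. Dnajb9, a J-domain protein that restrains IRE1, fell by 0.39 log2 units in aging RGCs and rose by 0.21 log2 units with the medium. It stayed lower than normal at a log2 fold change of -0.18, though that call was lost with DESeq2 and when normal replicate 2 or 3 or medium replicate 1 or 2 was left out. Its rise with the medium was not called without TMM factors, by limma or without medium replicate 3. Dnajb11, a BiP co-chaperone, and Sdf2l1, which works with it, were not called in aging RGCs at log2 fold changes of -0.04 and -0.13. Both rose with the medium, by 0.35 and 0.43 on the log2 scale.

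The lectin chaperones and disulfide isomerases divided in aging RGCs, where 3 of 5 rose and 2 fell (all genes, 23.8% and 23.1%), and all 5 rose with the medium (all genes, 27.2%). Canx, the membrane lectin chaperone calnexin, had 1119, 1151 and 1127 CPM in normal, 1315, 1268 and 1264 in aging and 1368, 1380 and 1358 in medium libraries. The groups did not overlap and were ordered normal, aging, medium. The log2 fold change was 0.18 (SE 0.028, adjusted p = 5.90e-07) in aging RGCs, 0.27 (SE 0.028, adjusted p = 5.00e-12) for the medium against normal, and 0.09 (SE 0.028, adjusted p = 0.00430) for the medium against aging, which was not called without TMM factors or by limma. Calr, the soluble lectin calreticulin, rose by 0.13 log2 units in aging RGCs and by a further 0.22 log2 units with the medium. Pdia3, the isomerase that works with both lectins, rose by 0.17 and 0.21 log2 units in the same comparisons.

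The other 2 isomerases were lower in aging RGCs. Pdia6, a disulfide isomerase bound to BiP, had 288, 307 and 299 CPM in normal, 262, 255 and 259.5 in aging and 401, 410 and 404 in medium libraries. Aging libraries were lowest and medium libraries highest, with no overlap. Log2 fold changes were -0.20 (SE 0.033, adjusted p = 8.78e-07) in aging RGCs, 0.65 (SE 0.032, adjusted p = 2.65e-23) with the medium and 0.44 (SE 0.032, adjusted p = 2.38e-17) for the medium against normal. Pdia4 showed the same order, with log2 fold changes of -0.28 in aging RGCs, 0.55 with the medium and 0.27 against normal. In aging RGCs, the calnexin cycle genes Canx, Calr and Pdia3 were thus higher while Pdia4 and Pdia6 were lower.

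Manf, a stress-induced neurotrophic factor that is retained or secreted, had 124, 130 and 123 CPM in normal, 108, 107 and 110.5 in aging and 168, 175 and 164 in medium libraries. The order again was aging, normal, medium without overlap. Its log2 fold change was -0.21 (SE 0.040, adjusted p = 1.51e-05) in aging RGCs, 0.64 (SE 0.040, adjusted p = 1.06e-19) with the medium and 0.43 (SE 0.039, adjusted p = 6.64e-14) for the medium against normal. The annotated Manf locus overlaps Rbm15b on its own strand, so reads in the shared part cannot be assigned from these counts. Creld2, another stress-induced lumenal protein, fell by 0.15 log2 units in aging RGCs, close to the threshold at an adjusted p of 0.0490 by edgeR. The fall was not called with DESeq2, no low-count filter, the compared groups alone or 6 of the fits with 1 library left out. Creld2 rose by 0.56 log2 units with the medium.

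Of the 4 degradation genes, 3 fell in aging RGCs (all genes, 23.1%) and rose with the medium (all genes, 27.2%) without passing the normal level. Herpud1 (chr8:94386438-94395377), a membrane protein that brings degradation factors together, had 162, 178 and 169.9 CPM in normal, 91.8, 105 and 90.99 in aging and 125, 121 and 126 in medium libraries. The groups were separate and the medium lay between the others. On the log2 scale the change was -0.83 (SE 0.045, adjusted p = 1.20e-19) in aging RGCs, 0.37 (SE 0.046, adjusted p = 3.63e-09) with the medium and -0.45 (SE 0.044, adjusted p = 3.65e-12) for the medium against normal. Sel1l, the adaptor of the degradation ligase, fell by 0.43 log2 units in aging RGCs and rose by 0.28 log2 units with the medium. Edem1, which marks glycoproteins for disposal, fell by 0.25 log2 units and then rose by 0.17 log2 units with the medium, a rise not called without TMM factors or by limma.

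Syvn1, the ligase that SEL1L serves, was the exception. It had 48.6, 49.7 and 46.8 CPM in normal, 44.5, 47.9 and 48.8 in aging and 40.9, 46.4 and 40.7 in medium libraries. The medium libraries were lower on average, and replicate 2 of them overlapped the aging group. In log2 units edgeR gave -0.04 (SE 0.058, adjusted p = 0.606) in aging RGCs, -0.14 (SE 0.060, adjusted p = 0.0428) with the medium and -0.18 (SE 0.059, adjusted p = 0.00701) for the medium against normal. The call between medium and aging was lost with DESeq2, with no low-count filter and when aging replicate 2 or 3 or medium replicate 1 or 3 was left out, and the call against normal was lost without medium replicate 1 or 3. Against normal RGCs, then, 3 of 4 degradation genes and 3 of 4 sensor genes were lower with the medium (all genes, 30.1%), Edem1 and Xbp1 not being called. Edem1 was called lower there without TMM factors, with upper-quartile scaling, by limma and without normal replicate 1. Of the lumenal Hsp70 and Hsp90 system 6 of 7 genes, and all 5 lectins and isomerases, were higher (all genes, 30.6%). Among these, the call of Sdf2l1 was lost without TMM factors and by limma.

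Endoplasmic genes with and without the stress element, in its longer form, in their promoter were set side by side. Between the medium and aging RGCs, 7 of 8 genes with the element rose (all genes, 27.2%) and 1 fell (all genes, 26.1%). These 8 genes had a median log2 fold change of 0.47. Of the 11 genes with a promoter but no match to this form, 10 rose, with a median of 0.28. Herpud1 and Dnajb11, which hold the shorter form, are among these 11. In aging RGCs, 3 of the 8 genes were higher (all genes, 23.8%) and 3 lower (all genes, 23.1%), with a median of -0.02. Of the 11 genes, 1 was higher and 8 lower, with a median of -0.37. Against normal RGCs, the medium gave medians of 0.41 and -0.09. The split also follows role. Ern1, Eif2ak3, Xbp1, Herpud1, Edem1 and Sel1l are all among the 11, while Syvn1 is the only sensor or degradation gene with the longer form. Over all members, sensors and degradation genes had medians of -0.47 and -0.34 in aging RGCs. Element and role can therefore not be told apart here. Atf6, Hyou1 and Manf had no promoter to search. Outside the members, 29 genes held the longer form, of which 9 were tested. With the medium, 2 of these 9 rose and 4 fell against aging RGCs (all genes, 27.2% and 26.1%), with a median of -0.10.

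**Figure D4:**
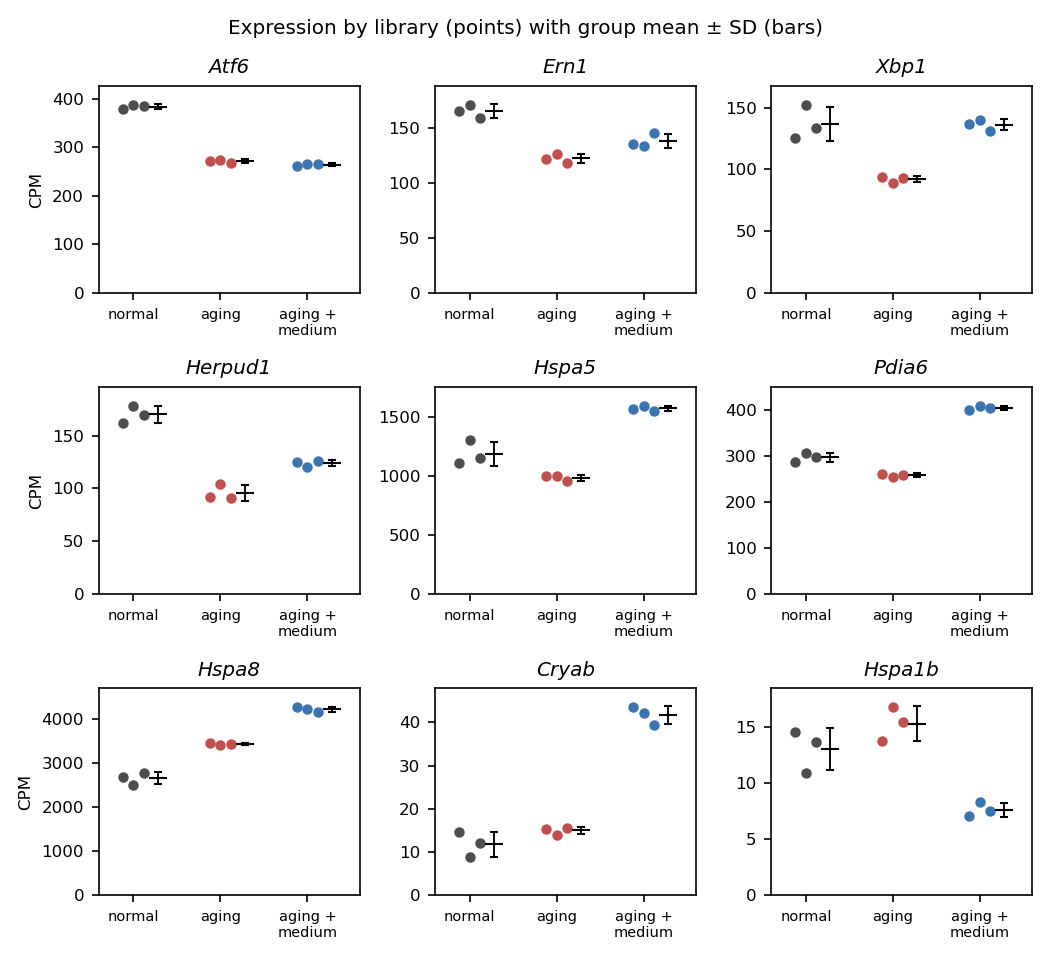
CPM in each library (points) with the group mean ± SD (bars, n = 3) for 9 genes. Atf6 stays low with the medium, Xbp1 lies in the normal range, Hspa5 and Pdia6 exceed it, Herpud1 and Ern1 lie between, and Hspa8, Cryab and Hspa1b show cytosolic patterns.

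In the cytosol, 2 of 4 tested Hsp70 and Hsp110 genes and 2 of 2 Hsp90 genes rose in aging RGCs (all genes, 23.8%). The same genes rose further with the medium (all genes, 27.2%), where Hspa1b fell. Hspa8 (chr9:40800984-40810087) had 2697, 2512 and 2777 CPM in normal, 3452, 3424 and 3445 in aging and 4287, 4246 and 4169 in medium libraries. The 3 groups were separate. The fitted log2 fold change was 0.37 (SE 0.030, adjusted p = 3.40e-15) in aging RGCs, the highest of all members there, 0.30 (SE 0.030, adjusted p = 2.39e-12) with the medium and 0.67 (SE 0.030, adjusted p = 1.21e-25) for the medium against normal. Hspa4, an Hsp110-type exchange factor, rose by 0.11 and 0.12 log2 units in aging RGCs and with the medium. Hsp90aa1, the inducible Hsp90, rose by 0.16 and 0.34 log2 units, and Hsp90ab1, the constitutive Hsp90, by 0.07 and 0.15 log2 units. The rise of Hsp90ab1 in aging RGCs was not called without TMM factors, by limma or in a fit of the compared groups alone. It was also not called without replicate 3 of normal RGCs or without replicate 2 or 3 of aging RGCs. The rise of Hspa4 with the medium was not called without TMM factors or by limma. Hsph1, also of the Hsp110 type, was not called in any comparison, with -0.00, 0.08 and 0.08 as log2 fold changes, though both involving the medium were called without medium replicate 2, that against aging also without normal replicate 2, and that against normal also without normal replicate 3.

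Hspa1b (chr17:34956436-34959238) was the member that fell furthest with the medium. It had 14.6, 10.9 and 13.7 CPM in normal, 13.7, 16.8 and 15.4 in aging and 7.04, 8.29 and 7.53 in medium libraries. Normal and aging libraries overlapped, and all medium libraries were below them. The log2 fold change was -1.01 (SE 0.11, adjusted p = 1.13e-10) against aging, -0.78 (SE 0.12, adjusted p = 6.90e-08) against normal, and 0.23 (SE 0.11, adjusted p = 0.0678) for aging against normal, which was called only when replicate 1 of normal or of aging RGCs was left out. Hspa1a, a near-identical copy beside it, had 8.38, 7.70 and 2.62 expected counts in normal, 4.43, 2.42 and 3.14 in aging and 3.88, 1.28 and 0 in medium libraries. How reads were divided between the copies is uncertain, and the summed gene gave -1.01 against aging (adjusted p = 6.58e-11) and -0.79 against normal (adjusted p = 2.83e-08).

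The co-chaperones changed little. Dnaja1, a J-domain partner of Hsp70, had 271, 274 and 278 CPM in normal, 303, 294 and 282 in aging and 312, 307 and 322 in medium libraries, with the groups close together but not overlapping. Log2 fold changes were 0.09 (SE 0.033, adjusted p = 0.0168) in aging RGCs, 0.10 (SE 0.033, adjusted p = 0.00994) with the medium and 0.19 (SE 0.033, adjusted p = 1.50e-06) for the medium against normal. Bag3, an exchange factor that links Hsp70 to autophagy, had 119.6, 113 and 121 CPM in normal, 123, 135 and 136 in aging and 123, 113 and 123 in medium libraries. Medium and aging libraries overlapped near 123 CPM. It rose by 0.16 log2 units (SE 0.043, adjusted p = 0.00214) in aging RGCs and changed by -0.13 log2 units (SE 0.043, adjusted p = 0.00861) with the medium and 0.03 (SE 0.043, adjusted p = 0.631) against normal. Neither call of Dnaja1 that involves aging RGCs held without TMM factors or by limma. The rise of Dnaja1 in aging RGCs was also lost without normal replicate 1 or aging replicate 1 or 2. Its rise with the medium was also lost with upper-quartile scaling and without aging replicate 3 or medium replicate 3. The rise of Bag3 in aging RGCs was not called by limma either, and its fall with the medium was lost when aging replicate 2 or 3 or medium replicate 2 was left out. Dnajb1, a stress-inducible J-domain protein, rose by 0.14 log2 units in aging RGCs, which was not called with DESeq2, without TMM factors, by limma or when normal replicate 2 or 3 or any aging library was left out, and gave 0.12 with the medium (adjusted p = 0.0693).

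The small heat shock proteins, which hold unfolded proteins without using ATP, were the most mixed. Cryab (chr9:50751325-50756636), αB-crystallin, had 14.6, 8.77 and 12.04 CPM in normal, 15.4, 14.01 and 15.6 in aging and 43.6, 42.2 and 39.3 in medium libraries. The medium libraries were far above both other groups, and normal and aging libraries overlapped. Its log2 fold change was 1.48 (SE 0.11, adjusted p = 3.73e-09) for the medium against aging, a 2.78-fold rise, 1.82 (SE 0.11, adjusted p = 1.60e-10) against normal, and 0.34 (SE 0.13, adjusted p = 0.0403) for aging against normal. This last call was lost with DESeq2, without TMM factors, by limma and when any library other than normal replicate 1 was left out. Cryab overlaps Hspb2 on the other strand, and whether the counting used strand is not given in the sources used here. Hsp90b1, Dnajb9, Dnajb11, Pdia3, Pdia6, Manf, Herpud1, Syvn1, Eif2ak3, Hspa1a and Dnaja1 also overlap annotated genes on the other strand, and Hspd1 and Hspe1 overlap each other.

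Hspb1, encoding HSP27, had 64.8, 53.5 and 68.1 CPM in normal, 50.2, 39.6 and 52.1 in aging and 75.2, 81.6 and 77.95 in medium libraries. The lowest normal library, replicate 2, was only just above the highest aging one, and the medium libraries were highest. On the log2 scale the change was -0.39 (SE 0.13, adjusted p = 0.0393) in aging RGCs, 0.73 (SE 0.12, adjusted p = 0.00203) with the medium and 0.33 (SE 0.12, adjusted p = 0.0477) for the medium against normal. The first call was lost when normal replicate 1 or 3, aging replicate 1 or any medium library was left out. A fit of the compared groups alone also lost it. The last call was lost without TMM factors, with upper-quartile scaling, with the 1 CPM filter, by limma and without any of 5 libraries. Hspb8, which forms a complex with BAG3, had 153, 150.1 and 151 CPM in normal, 106, 119 and 111 in aging and 131, 130.5 and 129.8 in medium libraries. The groups were separate with the medium between the others. It changed by -0.43 log2 units (SE 0.040, adjusted p = 4.42e-13) in aging RGCs, 0.22 (SE 0.041, adjusted p = 1.15e-05) with the medium and -0.21 (SE 0.040, adjusted p = 6.24e-06) for the medium against normal. Within this family, then, Hspb8 remained lower than normal with the medium and Cryab was above it.

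The mitochondrial chaperonins rose together. Hspd1, encoding HSP60, had 747, 807 and 779 CPM in normal, 942, 949 and 921 in aging and 1220, 1155 and 1168 in medium libraries, with 3 separate groups. In log2 units edgeR gave 0.27 (SE 0.031, adjusted p = 1.64e-10) in aging RGCs, 0.33 (SE 0.030, adjusted p = 1.45e-13) with the medium and 0.60 (SE 0.030, adjusted p = 2.09e-23) for the medium against normal. Hspe1, encoding its partner HSP10, had 73.4, 87.4 and 71.99 CPM in normal, 88.6, 83.6 and 88.5 in aging and 109, 117 and 106 in medium libraries. Normal replicate 2 overlapped the aging group, and the medium libraries were highest. The fitted log2 fold change was 0.16 (SE 0.059, adjusted p = 0.0251) in aging RGCs, a call lost without TMM factors, by limma and without any of 4 libraries, 0.35 (SE 0.057, adjusted p = 1.75e-05) with the medium and 0.51 (SE 0.057, adjusted p = 4.13e-08) against normal. The annotated genes overlap at their 5′ ends on opposite strands, so reads there could belong to either.

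Hsf1, the transcription factor of the heat shock response, had 39.1, 37.6 and 36.7 CPM in normal, 38.8, 40.4 and 43.4 in aging and 38.99, 42.1 and 42.6 in medium libraries. The groups overlapped in every comparison. The log2 fold change was 0.11 (SE 0.061, adjusted p = 0.129) in aging RGCs, 0.01 (SE 0.061, adjusted p = 0.886) with the medium and 0.12 (SE 0.061, adjusted p = 0.0732) for the medium against normal, none of them called, although the last was called without medium replicate 1. Without the 2 mitochondrial chaperonins, 8 of 13 cytosolic genes were higher in aging RGCs (all genes, 23.8%) and 8 of 13 higher with the medium than in aging RGCs (all genes, 27.2%).

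The sets were then compared within each library, as the mean over genes of log2 CPM minus the mean of normal RGCs. The endoplasmic mean was -0.03, 0.05 and -0.02 in the normal libraries, -0.21, -0.20 and -0.22 in the aging libraries and 0.13, 0.14 and 0.12 with the medium. The cytosolic mean was 0.04, -0.06 and 0.02 in normal, 0.09, 0.09 and 0.11 in aging and 0.31, 0.32 and 0.30 in medium libraries. Groups did not overlap in either mean, and the orders differed, since aging was the lowest group for endoplasmic genes and the middle group for cytosolic genes. The endoplasmic minus the cytosolic mean was -0.07, 0.11 and -0.04 in normal, -0.30, -0.28 and -0.33 in aging and -0.18, -0.18 and -0.18 in medium libraries. In these means the cytosolic set thus stood above the endoplasmic set by most in aging RGCs, and by less with the medium, where no library reached the normal values. The order with the medium depends on the use of a mean, to which Cryab adds a log2 fold change of 1.82 against normal. The medians against normal had the other order, at 0.29 for endoplasmic and 0.24 for cytosolic genes. The means and medians describe the chosen genes and were not tested.

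As a share of all counts, the endoplasmic genes took 0.760 ± 0.0310% in normal RGCs (SD, n = 3), 0.714 ± 0.00892% in aging RGCs and 0.864 ± 0.00203% with the medium. The cytosolic genes took 1.00 ± 0.0102%, 1.12 ± 0.00706% and 1.24 ± 0.0124%. Both shares were highest with the medium, and the endoplasmic share was lowest in aging RGCs and the cytosolic share lowest in normal RGCs, with no overlap between groups.

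**Figure D5:**
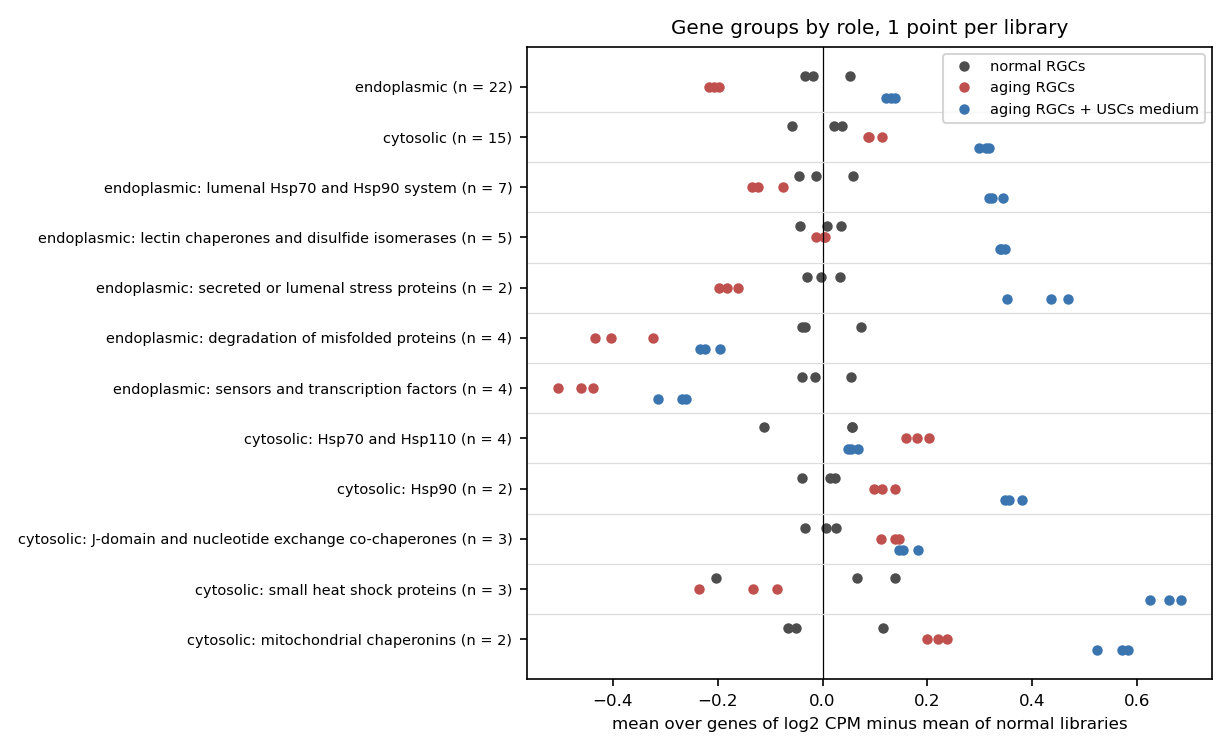
Mean over genes of log2 CPM minus the mean of normal RGCs, for each set and for groups of genes by role, 1 point per library. Aging libraries are lowest for the endoplasmic set at -0.22 to -0.20, and sensors and degradation genes are the groups below normal in both D-galactose-treated groups.

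Other genes of these pathways, from lists that do not overlap the members, were counted in the same fit. Of all genes tested, 23.1% were lower and 23.8% higher in aging RGCs, 26.1% lower and 27.2% higher with the medium than in aging RGCs, and 30.1% lower and 30.6% higher with the medium than in normal RGCs. A list drawn around the PERK and ATF4 branch held 10 genes: Atf4, Ddit3, Trib3, Ppp1r15a, Ppp1r15b, Eif2s1, Nck1, Eif2ak1, Eif2ak2 and Eif2ak4. The last genes named, Eif2ak1, Eif2ak2 and Eif2ak4, encode kinases other than PERK, whose own gene Eif2ak3 is a member and was not on this list. Of the 10, 5 fell and 2 rose in aging RGCs. With the medium, 6 rose and the other 4 were not called, and against normal RGCs 4 were higher and 6 lower. Trib3, a pseudokinase induced by ATF4, had 119, 135 and 124 CPM in normal, 37.8, 37.5 and 34.6 in aging and 77.8, 86.9 and 76.2 in medium libraries. These 3 groups were separate, with the medium between the others. Log2 fold changes were -1.78 (SE 0.055, adjusted p = 2.03e-28) in aging RGCs and 1.13 (SE 0.057, adjusted p = 7.54e-21) with the medium. Ddit3, which encodes the pro-apoptotic factor CHOP and overlaps Mars on the other strand, gave log2 fold changes of -1.62 and 0.65, Atf4 itself -0.94 and 0.71, and Ppp1r15a, which reverses the PERK signal, -1.13 in aging RGCs. Trib3, Ddit3 and Ppp1r15a were DEGs in aging RGCs, where 0 members were.

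Among 33 other endoplasmic folding genes, 17 fell (51.5%) and 2 rose in aging RGCs, against 23.1% and 23.8% of all genes, 17 rose and 3 fell with the medium, and 15 were higher and 8 lower than in normal RGCs. The oxidases that supply disulfide bonds, Ero1a and Ero1b, fell in aging RGCs, with log2 fold changes of -0.75 and -0.63, and were low against normal with the medium, at log2 fold changes of -0.79 and -0.65. Fkbp11, a prolyl isomerase, rose by 0.73 log2 units with the medium, and Mogs, the glucosidase that starts glycan trimming, by 0.58. Of 21 other endoplasmic degradation genes tested, 5 fell and 2 rose in aging RGCs, and 9 rose and 2 fell with the medium. The 5 that fell were 23.8% of the list, near the 23.1% of all genes. Os9, a lectin of this pathway, fell by 0.30 log2 units and rose by 0.29 log2 units.

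The 22 translocon and signal peptidase genes, which bring new proteins into the endoplasmic reticulum, hardly moved in aging RGCs, with 2 higher and 3 lower. With the medium 20 were higher both against aging and against normal RGCs, and the other 2 were not called. Serp1, a translocon-associated stress protein, rose by 0.70 log2 units against aging, Spcs3, a signal peptidase subunit, by 0.56, Ostc, an oligosaccharyltransferase subunit, by 0.52, and Sec61b, a channel subunit, by 0.46.

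In the cytosol, 32 other chaperone genes tested gave 6 higher and 8 lower in aging RGCs, or 18.8% and 25.0%, near the 23.8% and 23.1% of all genes, and 15 higher and 5 lower with the medium (all genes, 27.2% and 26.1%). Hspa4l, a further Hsp110-type gene, fell by 0.66 log2 units in aging RGCs, and Dnaja4 and Fkbp4, an Hsp90 partner, rose by 0.83 and 0.59 log2 units with the medium. The 14 subunits of the cytosolic chaperonin TRiC and of prefoldin, which fold actin and tubulin, gave 4 higher and 3 lower in aging RGCs, or 28.6% and 21.4%, again near the shares of all genes. With the medium 12 were higher (all genes, 27.2%) and the other 2 not called, led by Pfdn6 and Cct5 at log2 fold changes of 0.43 and 0.43. The 15 other mitochondrial chaperone and protease genes gave 6 lower in aging RGCs, the other 9 not being called, then 11 higher and 1 lower with the medium. Hspa9, the mitochondrial Hsp70, fell by 0.30 log2 units in aging RGCs and rose by 0.54 log2 units with the medium, whereas Hspd1 and Hspe1 rose in both comparisons.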

How the data were processed

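RNA was sequenced from 9 libraries of oligo(dT)-enriched mRNA, 3 per group, grouped by their titles. The authors deposited 1 table of 22322 genes with an expected count per gene and library, an estimate of reads without normalization. Beside it the authors gave an FPKM value, scaled for transcript length and depth. The submitters' processing notes name the mm10 build, while aligner, counting program and use of strand remain not given in the sources used here. Expected counts summed to between 18189616 and 22342288 per library, and the 6.92% to 7.38% of values with decimals were rounded.

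Tests used the robust quasi-likelihood F test of edgeR 4.0.16 under R 4.3.3 (filterByExpr, TMM, 1 mean per group over all 9 libraries, 6 residual degrees of freedom), with Benjamini-Hochberg adjustment over the 12145 genes tested. Members were not tested as sets. The members and the other gene lists were chosen with earlier results of these data known, so their counts and medians are descriptions. Named in full were, per comparison, the 5 highest and 5 lowest called members, and always Atf6, Ern1, Eif2ak3, Xbp1 and Hsf1. In 20 simulations for aging against normal RGCs over 12011 to 12041 genes, 89 to 97 of 100 genes changed by 1.5-fold were recovered. Of 100 changed by 2-fold, 97 to 100 were recovered, with 4 to 17 false calls in all. The changed genes were drawn from those above a count minimum and were far fewer than the genes called in the data. Changes below 1.5-fold, the size of most changes of the members, were not simulated.

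Alternatives were DESeq2 1.42.0, library totals without TMM, upper-quartile scaling, a filter at 1 CPM in 3 libraries or none, a fit of the compared groups alone, a replicate block, limma 3.58.1 on log2(FPKM + 1) and log2(FPKM + 0.1), and each library left out. Summing Hspa1a and Hspa1b and the shorter stress element were added after the data were seen. Locus positions came from GENCODE M21, which held 22267 of the 22322 identifiers, and promoters from RefSeq. Protein sequences were not analysed here.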

Additional observations from a re-analysis of the deposited data

How the results depend on the processing

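Of 2001 values of single genes under 19 alternatives, 1874 kept their side of the threshold, 111 lost the call, 16 gained one and 0 reversed. A change of direction counted as a reversal only where the value was called in the main or the alternative fit. Values called in neither counted as kept, and some of them changed sign. Hsf1 between the medium and aging RGCs, for example, went from 0.01 to as low as -0.067. Counts of endoplasmic genes called higher in any comparison, or called lower against normal RGCs, stayed within 1.5 times under every alternative. Without TMM factors, 35.8% of all calls between the medium and aging RGCs were higher, against 51.0% with them, and 34.7% against 50.5% between the medium and normal RGCs. By limma on FPKM the shares were 37.6% to 37.7% and 36.2% to 36.5%. The cause was not tested.

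Aging against normal, the endoplasmic median was -0.23 without TMM factors and -0.24 with limma at either pseudocount. The cytosolic genes called higher numbered 5 without TMM factors and 4 with limma at either pseudocount, and 6 to 9 with 1 library left out. Cytosolic genes called lower numbered 1 in a fit of only the groups compared and 1 to 2 with 1 library left out. The cytosolic median was 0.12 with limma on log2(FPKM + 1) and 0.11 to 0.15 with 1 library left out.

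Medium against aging, the endoplasmic genes called lower numbered 0 with DESeq2 and with no low-count filter, 2 without TMM factors and 2 with limma at either pseudocount, and 0 to 1 with 1 library left out. The endoplasmic median was 0.28 without TMM factors, 0.33 with upper-quartile factors, 0.28 and 0.29 with limma, and 0.32 to 0.38 with 1 library left out. The cytosolic genes called lower numbered 1 to 2 with 1 library left out. The cytosolic median was 0.074 without TMM factors, 0.075 with limma at either pseudocount, and 0.12 with upper-quartile factors.

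Medium against normal, the endoplasmic median was 0.19 without TMM factors, 0.25 with upper-quartile factors, and 0.18 and 0.19 with limma. The cytosolic median was 0.14 without TMM factors and with limma at either pseudocount, and 0.20 with upper-quartile factors.

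Same-numbered wells of different groups deviated with correlations of -0.037 to 0.048, and the numbers pair no libraries. With the replicate number as a block, the counts called were the same for all members, and the endoplasmic medians were -0.21, 0.36 and 0.29 in the 3 comparisons. With 3 wells per group and 6 residual degrees of freedom, calls near the threshold, such as those of Creld2 and Cryab in aging RGCs and of Syvn1 between the medium and aging RGCs, were lost when any of several libraries was left out and with DESeq2. Hspa1a was too sparse for any comparison at this depth.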
